A study of Mus musculus with 28 samples.

Results

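Oral Rapamune, the marketed oral form of rapamycin, was compared with no treatment in spleen T cells of healthy mice. The comparison was defined by the treatment labels, and it used 5 libraries from mice given Rapamune by gavage (RO) and 7 libraries from untreated mice (NT), 12 of the 28 libraries of the series. RO mice received 1 mg of rapamycin per kg of body weight at 0.125 mg/ml once a day, 11 doses in 11 days. NT mice received nothing, so gavage and drug came together and their effects cannot be told apart. Further groups of the series served as additional references. One (R, n = 6) received the same daily amount of rapamycin suspended in 0.2% CMC under the skin of the neck, and another (PS, n = 4) received empty PEG-b-PPS polymersomes, a polymer carrier without drug, by the same route at 60 mg of polymer per kg. A further group, rPS (n = 5), received the same polymersomes loaded with rapamycin at 1 mg per kg, and entered only the shared estimate of the spread. All mice were male C57BL/6J, 8 to 12 weeks old, and all libraries were made from CD3+ cells taken from the spleen by magnetic sorting. Each library came from 1 mouse, and expression is given as CPM, a gene's counts scaled to the total of its library.

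Rapamycin binds the small immunophilin FKBP12, encoded by Fkbp1a, and the complex inhibits the kinase mTOR within mTOR complex 1. That complex promotes ribosome production, translation of ribosomal protein mRNAs, lipid synthesis and glycolysis, and restrains autophagy. In T cells it couples antigen and cytokine signals to growth and entry into the cell cycle, which is the basis of the use of rapamycin to suppress immunity. Much of this control acts on proteins and on translation and need not appear at the level of mRNA.

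Several libraries stood apart before any comparison. A sixth RO library, replicate 7, was left out because 3559 of 11543 genes that had at least 10 counts in every other library of the series were listed at 0 there (30.8%), from part of chromosome 12 onwards. Malat1 and mt-Rnr2 were left out of every test because all NT files listed them at 0, whereas the 5 RO libraries held 15693 to 23654 CPM of Malat1 and the R and PS libraries held both genes as well. Treatment and whatever set the NT files apart therefore cannot be told apart in any RO against NT value below. Cd3e encodes an invariant chain of the antigen receptor of T cells. It was under 60 CPM in 1 RO library (replicate 3) and in 4 NT libraries (replicates 3, 4, 7 and 8). Total counts were 4721530 to 14153507 in RO and 5016231 to 15696546 in NT libraries.

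T cell content was uneven between libraries. Cd3e was 261, 47.9, 263, 289 and 244 CPM in the 5 RO libraries, and ran from 18.5 to 471 CPM with a median of 44.9 CPM in NT libraries. Lyz2, a lysozyme of monocytes, macrophages and neutrophils, was 218, 3264, 283, 185 and 207 CPM in RO libraries and 141 to 3721 CPM, median 1865 CPM, in NT libraries. The high RO value belonged to replicate 3, the library with the low Cd3e. The libraries with Cd3e under 60 CPM were thus rich in myeloid transcripts, and 4 of 7 NT libraries were of that kind against 1 of 5 RO libraries. Each comparison is therefore given over all libraries and again over those with Cd3e at 60 CPM or more, here called T cell-rich (RO n = 4, NT n = 3). These sets were not matched in T cell content: NT replicate 5 was only just inside, with Cd3e at 76 CPM and Lyz2 at 693 CPM, while Cd3e was 401 and 471 CPM in the other 2 NT libraries. Of the 3 T cell-rich NT libraries, replicates 2 and 6 stood apart in turn: Rps24, a protein of the small ribosomal subunit, was at 1479 and 1411 CPM there, against 137 to 295 CPM in the other NT libraries and 243 to 403 CPM in RO libraries. The series' own design text speaks of single cells, but each deposited file holds 1 column per mouse and was read as bulk RNA. In bulk RNA, fewer cells of a type and less RNA per cell cannot be told apart.

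**Figure D1:**
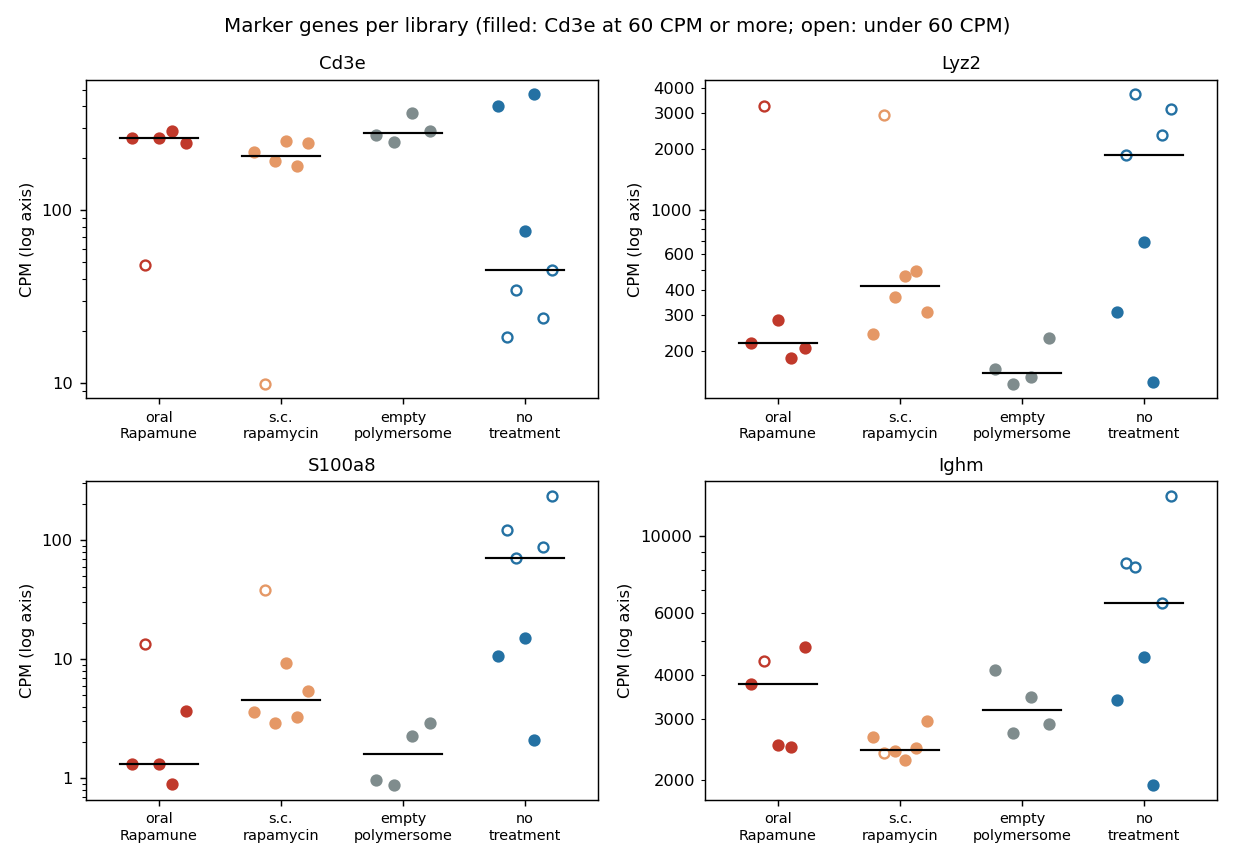
CPM on log axes of Cd3e (T cells), Lyz2 (myeloid cells), S100a8 (neutrophils) and Ighm (B cells) in each library after oral Rapamune, subcutaneous rapamycin, empty polymersomes or no treatment. Points are libraries, open where Cd3e was under 60 CPM, and lines are medians. Over all libraries Cd3e runs from 47.9 to 289 CPM in RO and from 18.5 to 471 CPM in NT. In the T cell-rich libraries it runs from 244 to 289 CPM in RO and from 76 to 471 CPM in NT.

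No gene passed the test between RO and NT. With edgeR's quasi-likelihood test and Benjamini-Hochberg adjustment over 17101 genes, 0 genes (0%) had an adjusted p under 0.05, and the smallest adjusted p was 0.155. At an unadjusted p under 0.05 there were 2150 genes (12.6%), of which 1172 were lower in RO (6.85%) and 978 were higher (5.72%). Among the T cell-rich libraries, 0 of 17000 genes (0%) passed, with a smallest adjusted p of 0.31, and 1382 genes (8.13%) had an unadjusted p under 0.05, 961 lower in RO (5.65%) and 421 higher (2.48%). The count depended on the tool and on single libraries: DESeq2 called 162 genes, limma voom 8051 with sample quality weights but 0 without them, and edgeR called 257 genes when NT replicate 5 was left out and 811 when NT replicates 2 and 6 were left out. Without NT replicates 2 and 6, 21 of 25 T cell receptor complex genes were among the genes called higher in RO, and 4 of the 5 NT libraries then left had Cd3e under 60 CPM. All gene values below are therefore descriptions, with the SE and adjusted p of the edgeR test. Counts of listed genes use the unadjusted p, beside the shares of all genes given here.

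Over all libraries, transcripts of the direct partners of rapamycin overlapped between the groups. Fkbp1a, which encodes the drug's binding protein, was 83, 71.6, 78.7, 99 and 76.8 CPM in RO libraries, against 50.3 to 93 CPM, median 65.4 CPM, in NT libraries. Its log2 difference was 0.10 ± 0.15 (SE) over all libraries and −0.02 in the T cell-rich ones. Mtor, the kinase itself, averaged 132 ± 12.7 CPM in RO (SD, n = 5) and ran from 110 to 129 CPM in NT libraries, a log2 difference of 0.04 ± 0.09. In the T cell-rich libraries it did not overlap, at 127 to 152 CPM in RO and 110 to 125 CPM in NT, a log2 difference of 0.15 ± 0.12 (adjusted p = 0.772). There 7.53% of all genes were likewise higher in RO without overlap. Of 31 genes of the mTOR complexes and their TSC-RHEB regulators, 0 had a p under 0.05 with a lower level and 4 with a higher one, and their median log2 difference was 0.05, beside −0.022 for all genes. In the T cell-rich libraries 0 of 31 had such a p in either direction, with a median of 0.03, and 5 were higher without overlap.

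Fkbp5 and Rptor were among the 4 genes higher at a p under 0.05 over all libraries. The list held Fkbp5 beside the complexes and their regulators. Fkbp5 encodes another rapamycin-binding immunophilin that is induced by glucocorticoids. It was 64.5, 102, 72.1, 91.6 and 60.6 CPM in RO libraries and 39.6 to 63 CPM, median 49.7 CPM, in NT libraries, a log2 difference of 0.54 ± 0.16 with adjusted p = 0.207. The difference was 0.22 ± 0.19 with adjusted p = 0.777 in the T cell-rich libraries, where NT values reached 63 CPM and the groups overlapped. Rptor, which encodes the scaffold that defines mTOR complex 1, was 168, 119, 159, 181 and 167 CPM in RO libraries and 106 to 161 CPM, median 111 CPM, in NT libraries. Its log2 difference was 0.30 ± 0.11 (adjusted p = 0.286) over all libraries and 0.23 ± 0.14 (adjusted p = 0.702) in the T cell-rich ones.

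Lists of processes under mTOR complex 1 had medians on both sides of 0. Of 28 ribosome biogenesis genes, 2 had a p under 0.05 with a higher level in RO and 0 with a lower one, with a median log2 difference of 0.12. Among T cell-rich libraries 4 had such a p with a higher level and 2 with a lower one, beside 2.48% and 5.65% of all genes, and the median was 0.03. There 8 of 28 were higher in RO without overlap and 1 was lower, beside 7.53% and 3.59% of all genes. Polr1b, a subunit of RNA polymerase I, was one of these, with a log2 difference of 0.32 ± 0.12 (adjusted p = 0.475), and Rrp12, a factor in ribosomal RNA maturation, another, at 0.46 ± 0.15 (adjusted p = 0.391). The 30 cholesterol and fatty acid synthesis genes had a median log2 difference of −0.08 over all libraries and 0.06 in the T cell-rich ones. Fasn, the fatty acid synthase, was 367, 148, 326, 370 and 354 CPM in RO libraries and 176 to 272 CPM, median 214 CPM, in NT libraries. Only the T cell-poor RO library lay below the NT range, and the log2 difference was 0.37 ± 0.20 (adjusted p = 0.433) over all libraries and 0.48 ± 0.16 (adjusted p = 0.427) in the T cell-rich ones. The 24 glycolysis and HIF1 target genes had a median of −0.23 and −0.10 in these fits, and the 33 genes of autophagy and lysosomes, which the complex restrains, −0.40 and −0.07. The autophagy median was −0.22 without NT replicate 4 and −0.66 without RO replicate 3.

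**Figure D2:**
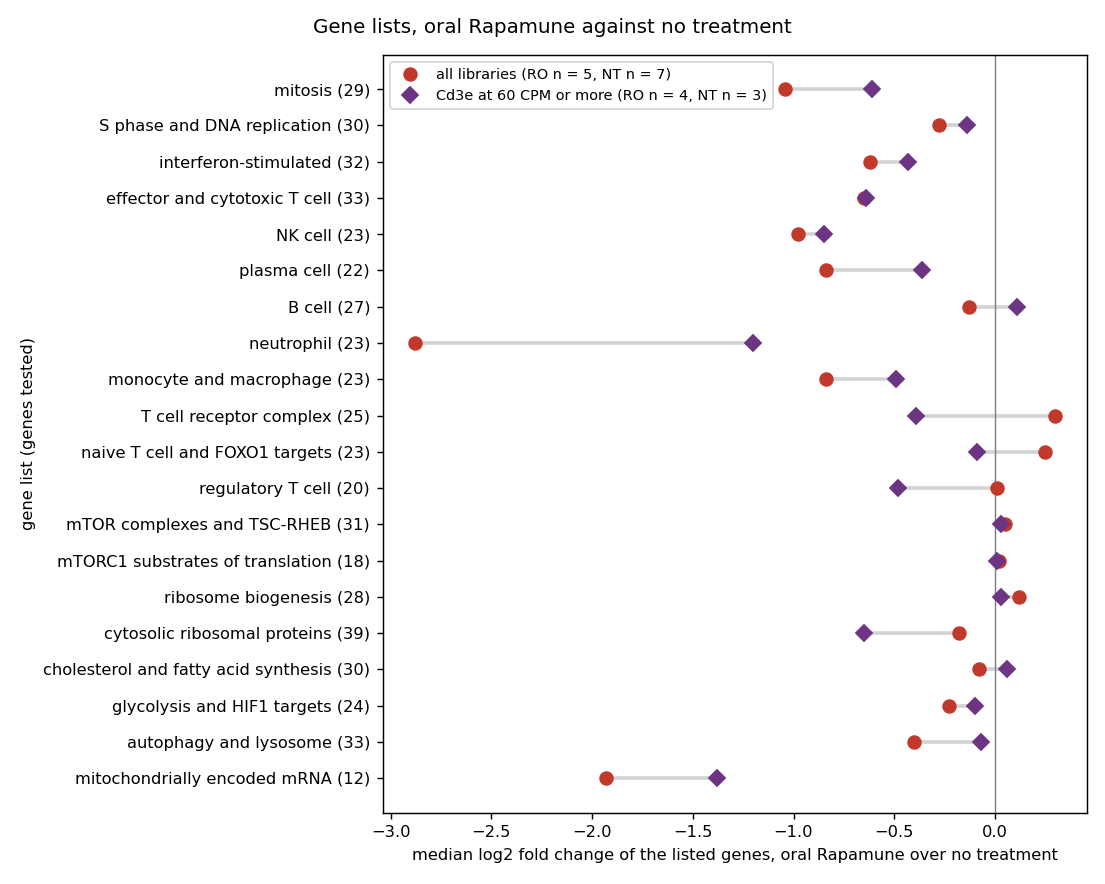
Median log2 fold change of the genes in each of 20 lists, oral Rapamune over no treatment, for all libraries (circles) and for libraries with Cd3e at 60 CPM or more (diamonds). The number of genes tested over all libraries follows each name. The neutrophil list moves from −2.88 to −1.20 between the fits and mitosis from −1.04 to −0.61, while the mTOR complex genes sit at 0.05 and 0.03.

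Transcripts of cell division were lower in RO than in NT libraries. All 29 tested genes of the mitosis list had a log2 difference below 0, 25 of them with a p under 0.05, and the median was −1.04. By edgeR none was called after adjustment. DESeq2 called 13 of 29 lower (all genes 0.748%), and edgeR called 9 without NT replicate 5 (all genes 0.772%) and 19 without NT replicates 2 and 6 (all genes 1.76%), but in the T cell-rich libraries DESeq2 called 0 of 29. Pclaf (ENSMUSG00000040204.7), of the S phase list, which encodes a PCNA-binding factor of DNA replication and repair, was 14.2, 11.4, 9.09, 8.88 and 12 CPM in RO libraries, against 12.7 to 27.7 CPM, median 21.5 CPM, in NT libraries. A single NT library, replicate 6, lay below the highest RO value. The log2 difference was −1.06 ± 0.21, with adjusted p = 0.155. It was −0.85 ± 0.23 (adjusted p = 0.328) in the T cell-rich libraries. DESeq2 called the gene with adjusted p = 0.00124, and the log2 difference ranged from −1.18 to −0.79 over all alternatives.

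Genes of the mitosis list showed the same order of groups. Top2a, the topoisomerase that untangles sister chromatids, was 53.1, 66.1, 55, 53.9 and 66.4 CPM in RO libraries and 55 to 181 CPM, median 117 CPM, in NT libraries, a log2 difference of −1.15 ± 0.29 (adjusted p = 0.182). Mki67, the gene of the proliferation antigen Ki-67, was 125, 129, 81.2, 96.3 and 167 CPM in RO and 116 to 454 CPM, median 258 CPM, in NT libraries. Bub1, a kinase of the spindle checkpoint, was 1.75, 2.31, 2.20, 1.40 and 3.68 CPM in RO and 2.74 to 11.4 CPM, median 6.8 CPM, in NT libraries. For each of these 3 genes only the lowest NT library, replicate 6, reached into the RO range. Outside the list, Cip2a (ENSMUSG00000033031.14), an inhibitor of the phosphatase PP2A, separated the groups completely, at 3.08 to 7.17 CPM in RO and 7.45 to 15 CPM in NT libraries, with a log2 difference of −1.20 ± 0.26 (adjusted p = 0.155). It was 1 of 32 genes that were lower in every RO than in every NT library (0.187% of all genes tested).

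Genes of other phases held a smaller share with a p under 0.05. Of 30 S phase and DNA replication genes, 8 had a p under 0.05 with a lower level, with a median of −0.28, and of 16 homologous recombination genes 6 did, with a median of −0.48. In the T cell-rich libraries 2 of 30 and 1 of 16 did, beside 5.65% of all genes. The medians there were −0.14 and −0.16. Rrm2, the inducible subunit of ribonucleotide reductase, had a log2 difference of −1.21 ± 0.35 (adjusted p = 0.192). Anln, the cytokinesis protein anillin, had a log2 difference of −1.48 ± 0.35 (adjusted p = 0.155), and Stmn1, the microtubule regulator stathmin, also of the mitosis list, −0.71 ± 0.22 (adjusted p = 0.209). In the T cell-rich libraries Rrm2 was −0.90 ± 0.41 (adjusted p = 0.605), Anln −1.07 ± 0.39 (adjusted p = 0.457) and Stmn1 −0.92 ± 0.28 (adjusted p = 0.368).

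The mitosis difference was smaller among T cell-rich libraries. Restricted to T cell-rich libraries, the mitosis median was −0.61, and 6 of 29 genes had a p under 0.05 with a lower level, beside 5.65% of all genes. Top2a was then −0.64 ± 0.30 (adjusted p = 0.614) and Mki67 −0.74 ± 0.41 (adjusted p = 0.679). With 3 covariates per library, the mean levels of B cell, of monocyte and of red cell genes, the mitosis median was −0.55. Neutrophil precursors and plasmablasts also divide. The summed level of the 25 neutrophil markers was 72.6 to 1074 CPM in RO and 56.9 to 5308 CPM in NT libraries, and their part in the mitosis difference was not tested. PS libraries, which had no drug, held Top2a at 52.1 to 74.8 CPM and Pclaf at 12.5 to 16.9 CPM. Against PS the mitosis median of RO was −0.15, with 0 of 29 genes at a p under 0.05.

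**Figure D3:**
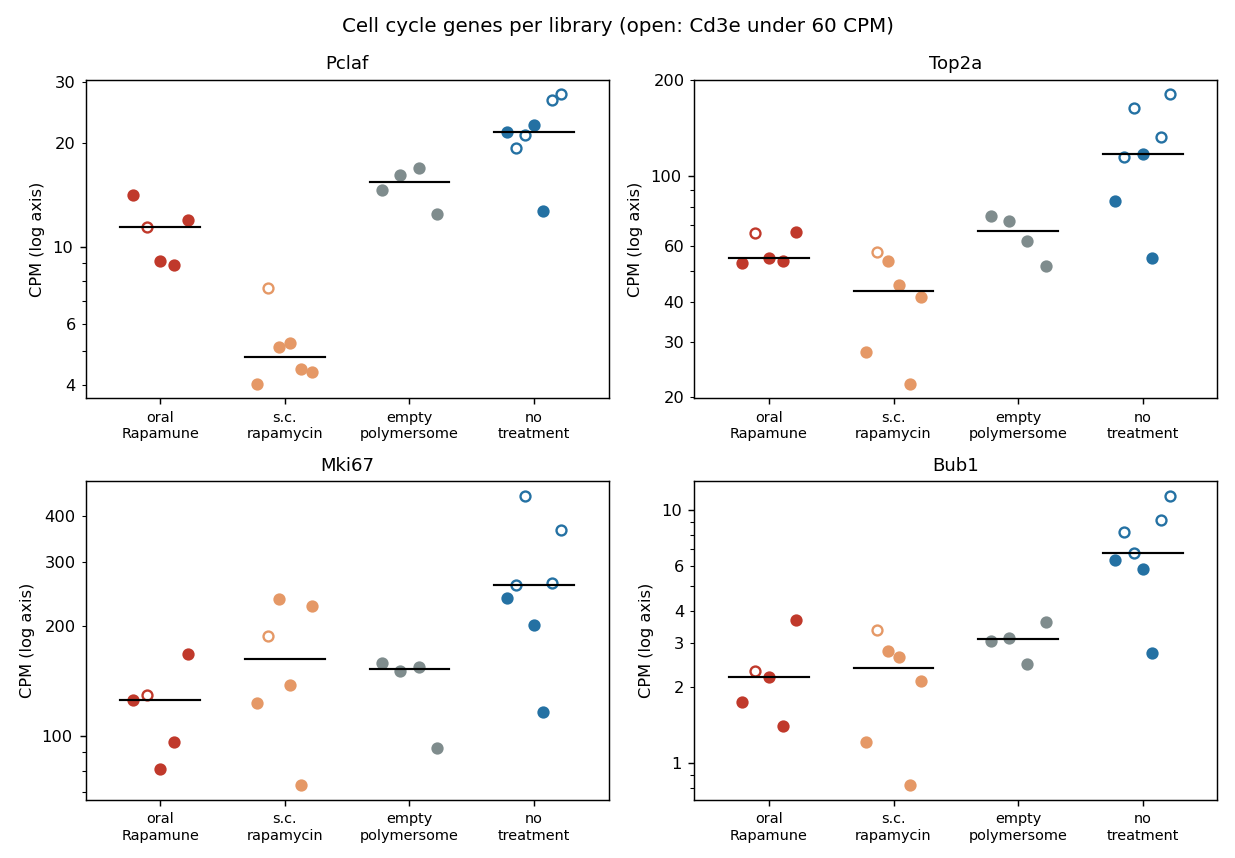
CPM on log axes of Pclaf, Top2a, Mki67 and Bub1 in each library of 4 groups, with medians as lines and open points where Cd3e was under 60 CPM. RO libraries lie below all NT libraries but one, Top2a at 53.1 to 66.4 CPM against 55 to 181 CPM, and close to PS libraries.

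Most promoters of the mitosis genes share a set of letters. The letters TTTGAA, the core of the cell cycle genes homology region through which the DREAM complex is known to hold mitotic genes silent in resting cells, were searched on either strand of RefSeq promoter windows (GRCm38.p6) that run from 250 bases before to 50 bases after a gene's start. They were in 19 of 25 windows of the 24 mitosis genes that had one (76%), in 3 of 29 windows of S phase and DNA replication genes (10.3%), and in 5878 of all 32851 windows (17.9%). The 250 bases upstream of the starts of Top2a, at chr11:99024190-99024439 on the minus strand, and of Mki67, at chr7:135716380-135716629 on the minus strand, are shown because both genes carry the mitosis difference and hold 2 matches each, in capitals.
Top2a: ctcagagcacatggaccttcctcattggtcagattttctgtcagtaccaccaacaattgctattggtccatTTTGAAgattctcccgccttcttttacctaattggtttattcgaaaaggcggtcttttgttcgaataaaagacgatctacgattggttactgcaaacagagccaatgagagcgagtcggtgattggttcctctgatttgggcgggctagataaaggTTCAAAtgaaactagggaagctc
Mki67: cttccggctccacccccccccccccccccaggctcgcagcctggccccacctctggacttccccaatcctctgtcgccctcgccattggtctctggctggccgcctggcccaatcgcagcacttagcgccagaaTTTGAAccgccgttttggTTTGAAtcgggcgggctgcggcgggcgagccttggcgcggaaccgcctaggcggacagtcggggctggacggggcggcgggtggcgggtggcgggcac
The matches begin 179 and 23 bases before the start of Top2a and 116 and 98 bases before that of Mki67. These letters are a description of the windows, and no binding was measured. The motif is known from mitotic genes, so a high share goes with the choice of the list. Its relation to the difference between RO and NT was not tested.

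Genes of T cell identity overlapped between the groups. The 25 genes of the T cell receptor complex had a median log2 difference of 0.30 over all libraries and −0.39 in the T cell-rich ones, and 0 of 25 had a p under 0.05 in either. Cd3e itself was 0.40 ± 0.68 over all libraries and −0.39 ± 0.39 in the T cell-rich ones, so the direction turned with the libraries used. Lat, an adaptor of the receptor, was 1.00 ± 0.56 (adjusted p = 0.449) and 0.27 ± 0.22. Foxp3, the transcription factor of regulatory T cells, was 14.9, 14.3, 23.8, 44.8 and 28.9 CPM in RO libraries and 7.35 to 44.7 CPM, median 11.6 CPM, in NT libraries. Its log2 difference was 0.22 ± 0.40 over all libraries and −0.41 ± 0.36 in the T cell-rich ones. Of 20 regulatory T cell genes, 1 had a p under 0.05 with a lower level and 0 with a higher one, with a median of 0.01. In the T cell-rich libraries these counts were the same. There 19 of 20 had a log2 difference below 0, beside 52.5% of all genes, and the median was −0.48.

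The balance of Cd4 to Cd8a, the co-receptors of helper and cytotoxic T cells, was compared as a ratio within each library. Some dendritic cells and macrophages carry these genes too, so the ratio can still depend on the share of T cells. The highest ratios were in libraries with Cd3e under 60 CPM, NT replicates 3 (−0.16) and 8 (−0.41) and RO replicate 3 (−0.60). NT replicates 4 (−0.86) and 7 (−0.76), also under 60 CPM, were not high. The log2 ratio was −1.55, −0.60, −1.94, −0.83 and −1.16 in the RO libraries and ran from −0.86 to −0.16, median −0.76, in the NT libraries. RO averaged −1.22 ± 0.54 (SD, n = 5) and NT −0.65 ± 0.27 (SD, n = 7), a difference of −0.56 with p = 0.048 in a two-sided exact permutation test. The call was fragile: leaving out 1 library gave differences of −0.72 to −0.38 and p from 0.0242 to 0.115, and it was lost without RO replicates 1, 4 or 6 or without any single NT library. In the T cell-rich libraries the difference was −0.58 (exact permutation p = 0.171), where 4 against 3 libraries cannot give a p under 0.0571. Cd8a was 342 to 428 CPM in the 4 T cell-rich RO libraries and 152 to 469 CPM in the 3 NT libraries, and Cd4 111 to 217 CPM and 84.5 to 260 CPM in the same groups. For R the ratios were −2.42 to −0.73 and for PS −1.25 to −0.71.

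Cytotoxic effector and natural killer transcripts were lower by list median in RO libraries in both sets of libraries. By summed level RO replicate 3 was not below the NT range. The effector list summed to 2956 CPM there, 987 to 1189 CPM in the T cell-rich RO libraries and 1349 to 2724 CPM in all NT libraries. The natural killer list summed to 966, 355 to 483 and 544 to 975 CPM in the same order. Of 33 effector and cytotoxic genes, 11 had a p under 0.05 with a lower level and 0 with a higher one, with a median of −0.65. Among T cell-rich libraries 15 of 32 did, with a median of −0.64. Gzma (ENSMUSG00000023132.9), the protease granzyme A of cytotoxic granules, was 12.5, 46, 12.6, 13.1 and 16.4 CPM in RO libraries and 15.1 to 73.4 CPM, median 49.3 CPM, in NT libraries. The 4 T cell-rich RO libraries lay below every NT library with Cd3e at 60 CPM or more, where Gzma was 26.6 to 73.4 CPM, and the log2 difference was −1.91 ± 0.41 (adjusted p = 0.31), against −1.21 ± 0.45 (adjusted p = 0.281) over all libraries and −1.88 without RO replicate 3. Gzmb, granzyme B, was −1.43 ± 0.33 (adjusted p = 0.31) in the T cell-rich libraries. Id2, a regulator of effector and innate lymphocytes, was 31.2 to 42.1 CPM in RO and 36.2 to 81.8 CPM in NT libraries, with a log2 difference of −0.80 ± 0.24 (adjusted p = 0.197). Lgals1, the secreted lectin galectin-1, was −1.05 ± 0.33 (adjusted p = 0.217).

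Natural killer cells do not carry CD3 and share many of these genes. Of 23 NK cell genes 15 had a p under 0.05 with a lower level, with a median of −0.98, and 11 of 22 did in the T cell-rich libraries, with a median of −0.85. Ncr1, the NKp46 receptor that marks these cells, was 8.08, 16.2, 8.5, 6.47 and 10.9 CPM in RO libraries and 9.43 to 40.9 CPM, median 30.2 CPM, in NT libraries. The log2 difference was −1.34 ± 0.36 (adjusted p = 0.187) over all libraries and −1.12 ± 0.37 (adjusted p = 0.427) in the T cell-rich ones. Klre1, an NK receptor subunit, was 1.97 to 5.34 CPM in RO and 3.83 to 14.4 CPM in NT libraries. NK markers thus lay lower together with the effector list, and their part in it was not tested. PS libraries held Gzma at 12.0 to 19.3 CPM and Ncr1 at 6.87 to 10.6 CPM, and the RO against PS medians were 0.31 for the effector list and 0.18 for NK cell genes.

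Interferon-stimulated genes, which respond to type I and type II interferons, were also lower in RO. Of 32 genes 31 had a log2 difference below 0, 10 with a p under 0.05, with a median of −0.62, and of −0.41 without NT replicate 4. Among T cell-rich libraries 14 did, with a median of −0.43. Ifi27l2a (ENSMUSG00000079017.4) was 10.5, 41.1, 17, 15.6 and 15.9 CPM in RO libraries and 13.3 to 65.7 CPM, median 39.5 CPM, in NT libraries. The groups overlapped through RO replicate 3 and through NT replicate 5, which held the lowest NT value. Its log2 difference was −1.03 ± 0.33 (adjusted p = 0.231) over all libraries, −1.57 without RO replicate 3 and −1.60 ± 0.34 (adjusted p = 0.31) in the T cell-rich ones. Ly6a, the Sca-1 antigen of activated lymphocytes, was 50.5 to 76.3 CPM in RO and 73.6 to 127 CPM in NT libraries, with a log2 difference of −0.73 ± 0.19 (adjusted p = 0.187). Xaf1 was −0.66 ± 0.18 (adjusted p = 0.187).

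Oasl2 was 11.8, 102, 11.4, 13.7 and 15.2 CPM in RO libraries and 13.6 to 153 CPM, median 71.7 CPM, in NT libraries, and the RO library at 102 CPM was again replicate 3. Its log2 difference was −1.28 ± 0.71, and −2.67 without that library. With the 3 cell covariates the interferon median was −0.24. The letters GAAA, any 2 bases and GAAA again, a form of the interferon-stimulated response element, were in 14 of 24 promoter windows of 21 of these genes (58.3%), against 1131 of 32851 windows of all genes (3.44%), on either strand, and neither of the searched letter sets contains the other. This element is named for such genes, and its relation to the difference between RO and NT was not tested. PS libraries held Ifi27l2a at 13.7 to 22.5 CPM.

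Neutrophil and plasma cell transcripts were lower in RO, and the differences were smaller among T cell-rich libraries. All 23 tested neutrophil genes were below 0 with a median of −2.88, 20 of them with a p under 0.05, and in the T cell-rich libraries 7 of 17 had such a p, with a median of −1.20. S100a8 encodes a calcium-binding protein abundant in neutrophils. It was 1.31, 13.4, 1.32, 0.888 and 3.68 CPM in RO libraries and 2.1 to 235 CPM, median 70.9 CPM, in NT libraries, a log2 difference of −4.18 ± 0.99 (adjusted p = 0.155). Mpo, the myeloperoxidase made by neutrophil precursors, was 0.218 to 3.10 CPM in RO and 0.510 to 149 CPM in NT libraries. Monocyte and macrophage genes had a median of −0.84, with 1 of 23 at a p under 0.05, and Lyz2 was −1.09 ± 0.89 (adjusted p = 0.6). Without RO replicate 3 the medians were −4.82 for neutrophil and −1.89 for monocyte and macrophage genes, and Lyz2 was −3.16.

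Antibody genes varied in the same way. All 22 plasma cell genes were below 0, 13 with a p under 0.05, with a median of −0.84 over all libraries and −0.36 in the T cell-rich ones, where 3 of 21 had such a p. Ighg1, the heavy chain of an IgG class, was 7.77 to 13.2 CPM in RO and 9.05 to 237 CPM in NT libraries. Igha, that of IgA, was 53.3 to 299 CPM in RO and 124 to 3203 CPM in NT libraries, a log2 difference of −2.66 ± 0.74 (adjusted p = 0.188) over all libraries and −1.74 ± 0.55 (adjusted p = 0.388) in the T cell-rich ones. Without NT replicate 4 Igha was −1.65 and Ighg1, at −2.85 ± 0.72 over all libraries, was −1.84. Prdm1, the regulator of plasma cell and effector T cell fate, was −0.86 ± 0.28 (adjusted p = 0.234). Igkv8-24, a kappa chain variable segment, was −2.36 ± 0.50 (adjusted p = 0.155) over all libraries and −0.69 ± 0.45 (adjusted p = 0.708) in the T cell-rich ones, and reads of related segments can be split among copies. The 27 B cell genes had a median of −0.13, with 8 of them above 0, and a median of 0.11 in the T cell-rich libraries. Over all libraries 1 of 27 had a p under 0.05 with a lower level, beside 6.85% of all genes. Ighm, the IgM heavy chain of B cells, had the lowest difference of this list. It was 2495 to 4802 CPM in RO and 1938 to 12989 CPM in NT libraries. Its difference of −0.98 ± 0.36 (adjusted p = 0.277) was −0.02 ± 0.34 in the T cell-rich libraries. Every library thus held B cell RNA after the CD3 sort.

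Mitochondrially encoded mRNAs separated the groups, in a list chosen after the values were seen. The 13 mRNAs summed to 4980, 6072, 5235, 4153 and 5620 CPM in RO libraries and 6699 to 31719 CPM, median 11700 CPM, in NT libraries, with no overlap. Of 12 tested genes 11 had a p under 0.05 with a lower level and a median of −1.93, and in the T cell-rich libraries 9 of 12, with a median of −1.38. mt-Nd4 (ENSMUSG00000064363.1), a subunit of respiratory complex I, was 151, 74, 134, 94.2 and 164 CPM in RO libraries and 222 to 1007 CPM, median 497 CPM, in NT libraries, a log2 difference of −2.17 ± 0.46 (adjusted p = 0.155). mt-Nd5 was −1.54 ± 0.31 (adjusted p = 0.155) and mt-Nd2 −2.07 ± 0.46 (adjusted p = 0.155), both without overlap, and mt-Co1, of cytochrome c oxidase, was −1.64 ± 0.52 (adjusted p = 0.226) with overlap. The 28 nuclear oxidative phosphorylation genes had a median of −0.08, with 4 at a p under 0.05 lower and 1 higher. PS libraries held 2519 to 6394 CPM of the mitochondrial mRNAs and R libraries 3183 to 11151 CPM. The NT files were also those that listed mt-Rnr2, another mitochondrial RNA, at 0. As in every RO against NT comparison, treatment and whatever set the NT files apart cannot be told apart here.

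In the T cell-rich libraries the ribosomal protein and small RNA differences were those in which NT replicates 2 and 6 stood apart. Of 39 cytosolic ribosomal protein genes, 23 had a p under 0.05 with a lower level in RO, with a median of −0.65, against 2 and −0.18 over all libraries. With NT replicates 2 and 6 left out the median was 0.48. Rps24 (ENSMUSG00000025290.18) was 358, 243, 403, 279 and 346 CPM in RO libraries and 137 to 1479 CPM, median 287 CPM, in NT libraries. Its log2 difference of −1.74 ± 0.36 (adjusted p = 0.31) in the T cell-rich libraries was 0.39 over all libraries without those 2. Rpl24, of the large subunit, was −1.60 ± 0.43 (adjusted p = 0.328) in the T cell-rich libraries and Pfdn5, a subunit of the chaperone prefoldin, −1.25 ± 0.27 (adjusted p = 0.31). Scarna10 (ENSMUSG00000089617.3), a small Cajal body RNA, was 49.1 to 103 CPM in RO libraries, while NT replicates 2 and 6 held 588 and 477 CPM and the other NT libraries 21.1 to 146 CPM. Cox7b, of cytochrome c oxidase, was 9.18 to 19.1 CPM in RO and 12.3 to 49.3 CPM in NT libraries. Hist1h2bb, a replication-dependent histone, was −1.90 ± 0.46 (adjusted p = 0.155) over all libraries, and 26 of 62 clustered histone genes, a list also chosen afterwards, had a p under 0.05 with a lower level.

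**Figure D4:**
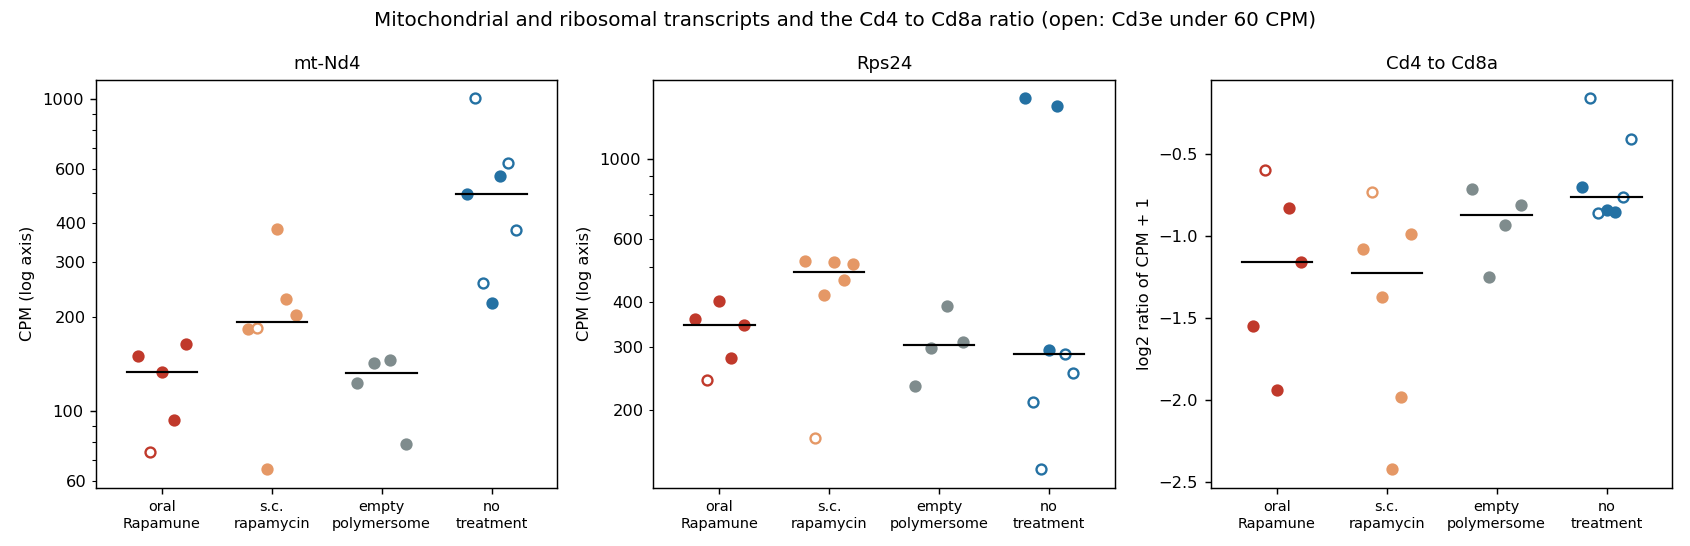
CPM on log axes of mt-Nd4 and Rps24, and the log2 ratio of Cd4 to Cd8a on a linear axis, in each library of 4 groups, with medians as lines and open points where Cd3e was under 60 CPM. RO libraries hold mt-Nd4 at 74 to 164 CPM, below all NT libraries, and the 2 NT libraries with Rps24 above 1000 CPM stand apart from every other library.

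Some genes were higher in RO. Between RO and NT, 77 genes were higher in every RO library (0.45% of all genes), and 32 were lower (0.187%). Overlap was judged on CPM, without the TMM scaling of the test, and some of the 77 hardly differed there, such as Tbc1d9b at 0.03. By an unadjusted edgeR p under 0.05 the order was reversed, with 5.72% of genes higher and 6.85% lower. Tmc6 (ENSMUSG00000025572.19), a transmembrane channel-like protein, was 191, 165, 179, 232 and 179 CPM in RO libraries and 95.4 to 141 CPM, median 128 CPM, in NT libraries, a log2 difference of 0.54 ± 0.13 (adjusted p = 0.155) without overlap. Tmppe, a transmembrane metallophosphoesterase, was 49.5 to 57.1 CPM in RO and 26.3 to 42.4 CPM in NT libraries, at 0.49 ± 0.12 (adjusted p = 0.182), also without overlap. Lncppara, a long noncoding RNA, was 3.18 to 5.68 CPM in RO and 1.41 to 3.13 CPM in NT libraries.

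Dnah17, an axonemal dynein heavy chain, was 0.88 ± 0.22 (adjusted p = 0.177) and Ilvbl, an acetolactate synthase-like enzyme, 0.62 ± 0.16 (adjusted p = 0.184). In the T cell-rich libraries Eps8l1, an actin regulator of the EPS8 family, was 1.47 ± 0.32 (adjusted p = 0.31), Gfod2 0.68 ± 0.20 (adjusted p = 0.352), Ipo4, a nuclear import receptor, 0.51 ± 0.14 (adjusted p = 0.352), Fam120c 0.42 ± 0.12 (adjusted p = 0.359) and Atad3a, an ATPase of the mitochondrial inner membrane, 0.39 ± 0.12 (adjusted p = 0.371). Each of these 5 was without overlap there, as were 7.53% of all genes with higher levels in RO. They were picked by their small p in that same fit. Tmem154, a transmembrane protein, went the other way and was 33.1 to 48.8 CPM in RO and 49.9 to 92.1 CPM in NT libraries, at −0.80 ± 0.17 (adjusted p = 0.155) without overlap. PS libraries held Tmc6 at 186 to 214 CPM and Tmem154 at 41.1 to 47.8 CPM.

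**Figure D5:**
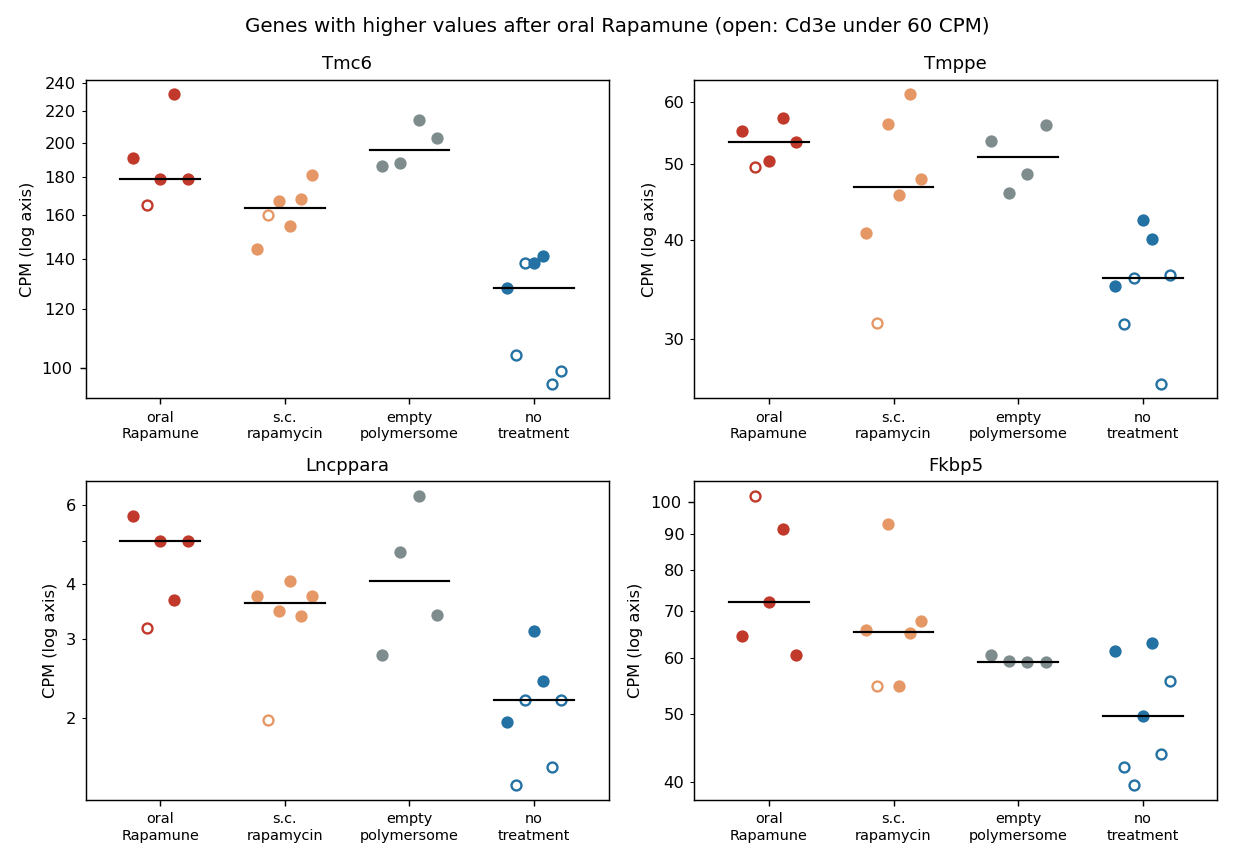
CPM on log axes of Tmc6, Tmppe, Lncppara and Fkbp5 in each library of 4 groups, with medians as lines and open points where Cd3e was under 60 CPM. Tmc6, Tmppe and Lncppara do not overlap between RO and NT, with Lncppara at 3.18 to 5.68 CPM against 1.41 to 3.13 CPM.

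The comparison with PS asked how RO differed from mice handled and injected but given no drug. By edgeR 0 of 17101 genes (0%) were called, with a smallest adjusted p of 0.994, and 419 genes (2.45%) had an unadjusted p under 0.05, lower in RO for 0.766% and higher for 1.68% of genes. In the T cell-rich libraries the same share was 0.876% (0.612% lower, 0.265% higher). This comparison shares the RO libraries with that against NT, so the values are given side by side only. The RO against PS log2 difference was −0.38 ± 0.24 for Pclaf, −0.08 for Top2a, 0.05 for mt-Nd4, −0.01 for Tmc6, 0.44 for Gzma and 0.47 ± 0.19 (adjusted p = 0.994) for Fkbp5. RO against NT gave −1.06, −1.15, −2.17, 0.54, −1.21 and 0.54 for the same genes in that order. Among myeloid genes Lyz2 was 2.47 ± 1.07 against PS (adjusted p = 0.994) and 0.41 ± 0.51 in the T cell-rich libraries, and over all libraries 9 of 23 monocyte and macrophage genes had a p under 0.05 with a higher level in RO. A p that misses the threshold does not show that RO and PS libraries were alike.

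Set against R, the same daily dose under the skin, Pclaf lay higher in RO libraries, while red cell RNA lay lower by median and overlapped. By edgeR 0 of 17101 genes (0%) were called, with a smallest adjusted p of 0.0649, and 495 genes (2.89%) had an unadjusted p under 0.05, against 4.53% of genes in the T cell-rich libraries (2.19% lower, 2.34% higher). Pclaf was 8.88 to 14.2 CPM in RO and 4.03 to 7.62 CPM in R libraries, a log2 difference of 1.07 ± 0.22 with adjusted p = 0.18, without overlap. Stmn1 was 0.72 ± 0.22 (adjusted p = 1.0). Of 32 interferon-stimulated genes 5 had a p under 0.05 with a higher level in RO and 1 with a lower one. Of 20 MHC class I genes 9 had such a p with a higher level, beside 1.5% of all genes. Of 30 cholesterol and fatty acid synthesis genes 8 had such a p with a higher level. Red cell genes went the other way, with 24 of 24 below 0 and a median of −2. Of these, 15 had a p under 0.05 with a lower level in RO, beside 1.4% of all genes. Their summed level was 260 to 5220 CPM, median 2780 CPM, in RO and 260 to 12226 CPM, median 5022 CPM, in R libraries after red cell lysis.

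Syt6, a synaptotagmin of vesicle fusion, was 1.31, 2.81, 3.23, 3.93 and 1.49 CPM in RO libraries and 0.152 to 24.7 CPM in R libraries, where the lowest value was the T cell-poor replicate 3. The log2 difference was −2.56 ± 0.74 (adjusted p = 1.0) over all libraries and −2.90 (adjusted p = 0.0967) in the T cell-rich ones. In NT libraries Syt6 was 0 to 3.35 CPM, median 0.598 CPM, and RO against NT was 1.27 ± 0.74 (adjusted p = 0.464).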

How the data were processed

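The authors deposited, for each of 28 mice, expected counts (estimated counts per gene) for 55413 gene IDs. Per the submitters' processing notes, Trimmomatic 0.39, STAR 2.7.5a, Cufflinks 2.1.1, Cuffdiff and the build GRCm39 were used. The counting tool, its annotation and its use of strand were not given in the sources used here, so overlapping and antisense genes cannot be told apart. Symbols came from GENCODE M21 (GRCm38), which matched 52082 IDs (94.0%).

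Deposited expected counts were rounded. edgeR 4.0.16 (R 4.3.3, quasi-likelihood, robust, TMM, filterByExpr) was fitted to 27 libraries in 5 groups, two-sided, with calls at a Benjamini-Hochberg adjusted p under 0.05. Fold changes are log2, with the SE of the fit. A count of 0 allows up to 3 counts, 0.191 to 0.635 CPM in RO and NT libraries, for counting error only. Alternatives used DESeq2 1.42.0 and limma 3.58.1. The Cd4 to Cd8a ratio used CPM + 1 and SciPy 1.17.1. The edgeR steps were tested on simulated data. The labels name separate mice but no pairs.

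Named genes were the 6 with the smallest p per direction in each fit, at 2 CPM or more on average and with an official symbol, a fixed set of lineage and pathway genes, and examples from the lists chosen after their values were seen. Members, lists and tests were chosen with earlier results of these data known. Some genes are not reported here.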

Additional observations from a re-analysis of the deposited data

Results flagged for a closer look

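In 10 of 76 sets of RO or NT values tested, 1 library lay far from the rest of its group by Dixon's test. The sets share their libraries, and some genes were picked in the fit without RO replicate 3. The chance rate of about 1 in 20 is therefore no yardstick for this count. All 10 were RO replicate 3, the RO library with Cd3e under 60 CPM. Cd3e was 47.9 CPM there, against 244 to 289 CPM in the other RO libraries, and Cd8a was 82.8 CPM against 342 to 428 CPM. Lyz2 was 3264 CPM against 185 to 283 CPM, S100a8 was 13.4 CPM against 0.888 to 3.68 CPM, Ifi27l2a was 41.1 CPM against 10.5 to 17 CPM and Gzma was 46 CPM against 12.5 to 16.4 CPM. Cox7b was 19.1 CPM against 9.18 to 11.6 CPM. Lower values in that library were those of Ipo4, at 24.4 CPM against 50 to 53.4 CPM, Fam120c, at 16.8 CPM against 33 to 35.5 CPM, and Atad3a, at 29 CPM against 51 to 59.4 CPM.

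A pair of genes kept out of the comparison had counts in RO and none in NT. Malat1, an abundant nuclear RNA, was 15693.4 to 23653.6 CPM in the 5 RO libraries, scaled to all counts, and was listed at 0 in all 7 NT libraries. mt-Rnr2, a mitochondrial ribosomal RNA, was 5048.2 to 8504.4 CPM in RO and was likewise listed at 0 in all 7 NT libraries, while mt-Rnr1 had counts in both groups.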

How the results depend on the processing

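Genes called between RO and NT, 0 by edgeR, came to 162 with DESeq2 (34 higher, 128 lower), 8051 with limma voom with sample quality weights, 0 without weights, 3 with the cell covariates and 811 without NT replicates 2 and 6, the last and the unweighted fit being chosen after seeing the data. Leaving out 1 library gave 0 to 257, the highest without NT replicate 5 and 1 each without NT replicate 6 or RO replicate 3. In the T cell-rich libraries the counts were 36 with DESeq2, 5711 with the weights, 9 with the covariates, and 0 to 663 with 1 library left out, again the highest without NT replicate 5. RO against R gave 13 with DESeq2, 133 with weights, 1 with unweighted voom and 0 to 4 with 1 library left out, the highest without R replicate 3, and RO against PS gave 1 with DESeq2. The quality weights were 0.172 to 0.383 for NT replicates 2, 4, 5 and 6 and 0.189 for RO replicate 3, against 3.56 for RO replicate 1. Causes of these shifts were not tested. The Cd4 to Cd8a difference was −0.58 (p = 0.171) in the T cell-rich libraries and −0.72 to −0.38 with 1 library left out, by exact permutation.

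A replicate block for the replicate number called 0 genes over all libraries and 0 in the T cell-rich ones. Same-numbered RO and NT libraries deviated with correlations of 0.50, −0.25, 0.32 and 0.33, and none correlated best with its own number. With so few shared numbers this check cannot settle whether the numbers pair the samples. Signs turned for Rps24 (0.39), Pfdn5 (0.06) and Scarna10 (0.44) without NT replicates 2 and 6, for Rps24 (0.17) and Scarna10 (0.57) with quality weights, and for Cd3e (−0.39), Cd4 (−0.50), Foxp3 (−0.41) and Fkbp1a (−0.02) in the T cell-rich libraries. Cd4 turned also with the covariates (−0.31) and without NT replicates 3, 4, 7 or 8 or RO replicate 5 (−0.16 to −0.01). Foxp3 turned with the covariates (−0.07), with RO replicate 7 put back (−0.05) and without RO replicate 5 (−0.08). Putting RO replicate 7 back moved the median of all genes to −0.102. Beside these 18 reversals, 2225 values of named genes and lists kept their direction and side of the threshold or moved by less than the spread, 141 passed the threshold only under the alternative, and 64 moved by more.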

Other observations

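Transcripts of 24 pancreatic acinar genes, mostly digestive enzymes, summed to 33.9, 516, 13.6, 15.2 and 12.8 CPM in RO libraries and 6.81 to 81.9 CPM in NT libraries. The highest value was RO replicate 3. The median log2 difference of the 17 tested genes was 1.76 over all libraries, −1.57 without RO replicate 3 and −0.70 in the T cell-rich ones, and 0 of 17 had an unadjusted edgeR p under 0.05 in either.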
